A study of Saccharomyces cerevisiae with 12 samples.

Results

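The 10 genes described here encode parts of the yeast pheromone response pathway and of the haploid mating programme. They were picked by name from the 7126 features measured in each library, with earlier results of these data known. They are GPA1, STE4, STE18, STE5, FUS3, STE12, FAR1, FUS1, HO and RME1. All 10 were abundant enough to be tested, by a filter that kept features averaging 1 RPKM or more.

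Haploid yeast cells of opposite mating type find each other by secreted peptide pheromones. A pheromone receptor acts on a G protein made of Gpa1, Ste4 and Ste18; the freed Ste4-Ste18 pair recruits the scaffold Ste5 and starts a kinase cascade that ends in Fus3. Fus3 acts on the transcription factor Ste12 and on Far1, so that mating genes such as FUS1 are induced and the cell cycle stops before cell fusion. In diploid a/α cells the a1-α2 repressor turns off haploid-specific genes, among them HO, whose product cuts the mating-type locus to switch mating type, and RME1, whose product blocks entry into meiosis.

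The transcriptome of wild-type Saccharomyces cerevisiae was compared, by sequencing rRNA-depleted RNA, with that of strains able to live without parts of NuA4, an acetyltransferase complex that modifies histones. Its catalytic subunit is the product of ESA1, the product of EPL1 joins Esa1 in the small piccolo form of the complex, and Sds3 belongs to the deacetylase complex Rpd3L. Besides wild type, the 3 other groups were labelled epl1Δ sds3Δ, esa1Δ sds3Δ and, for the triple mutant, esa1Δ epl1Δ sds3Δ, and each of the 4 groups had 3 libraries labelled as biological replicates. All strains were MATα W303 haploids with mutant alleles of ADE2, CAN1, HIS3, LEU2, TRP1 and URA3, kept at 24 °C in synthetic complete medium until mid-log phase, with no pheromone named in the labels. The mutant strains carried the deletions as epl1Δ::kanMX, esa1Δ::HIS3 and sds3Δ::natMX alleles. No libraries labelled sds3Δ alone were analysed, so what each gene owes to SDS3 cannot be told apart from what it owes to ESA1 or EPL1.

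The reads behind the values numbered 8089179 to 14527280 per library. ESA1 and EPL1 followed the labels, with 1 to 3 ESA1 reads in the 6 libraries labelled esa1Δ and 4 to 13 EPL1 reads in the 6 labelled epl1Δ. SDS3 had 112 to 158 reads in wild type and 36 to 77 reads in the 9 libraries labelled sds3Δ. It was called lower in each mutant group (limma's adjusted p 0.00490, 0.0107 and 0.0112), but its reads were not lost as ESA1 and EPL1 reads were. Reads counted over the whole gene cannot tell a partial deletion from an intact gene, so the mutant groups are called here by their labels. The α-specific genes, which mark MATα cells, were expressed in every library, and their summed level was 888 to 1094 RPKM in wild type and 327 to 404 RPKM in the mutant libraries. The 7 a-specific genes, which MATα cells keep off, summed to 7.05 to 8.57 RPKM in wild type and 8.64 to 17.5 RPKM in the mutant libraries.

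Levels are given as RPKM, reads normalized for length and depth, after division by a scaling factor for each library, so they can be compared between genes. In wild type, RME1 was the highest of the 10 genes at 108 ± 14.6 RPKM (SD, n = 3, as for all group means below), near the 86.2nd percentile of the 5956 tested features. STE4 and STE18 followed at 36.3 ± 3.77 and 34.5 ± 4.28 RPKM, and these neighbours in the order did not differ beyond their spread. GPA1, STE5, FUS3, FAR1 and HO lay between 13.9 ± 1.5 and 9.62 ± 2.56 RPKM, each within its neighbour's spread. STE12 stood at 5.16 ± 0.649 RPKM, and FUS1 was lowest at 0.729 ± 0.101 RPKM, at the 2.0th percentile. RME1 was also the highest and STE4 and STE18 the next in every mutant group. FUS1 had the lowest mean in 3 groups. In the libraries labelled epl1Δ sds3Δ, FUS1 (1.25 ± 0.369 RPKM) overlapped HO (1.74 ± 0.441 RPKM). In the libraries labelled esa1Δ sds3Δ, HO (1.07 ± 0.405 RPKM) and FUS1 (1.21 ± 0.422 RPKM) were both lowest and did not differ beyond their spread.

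**Figure D1:**
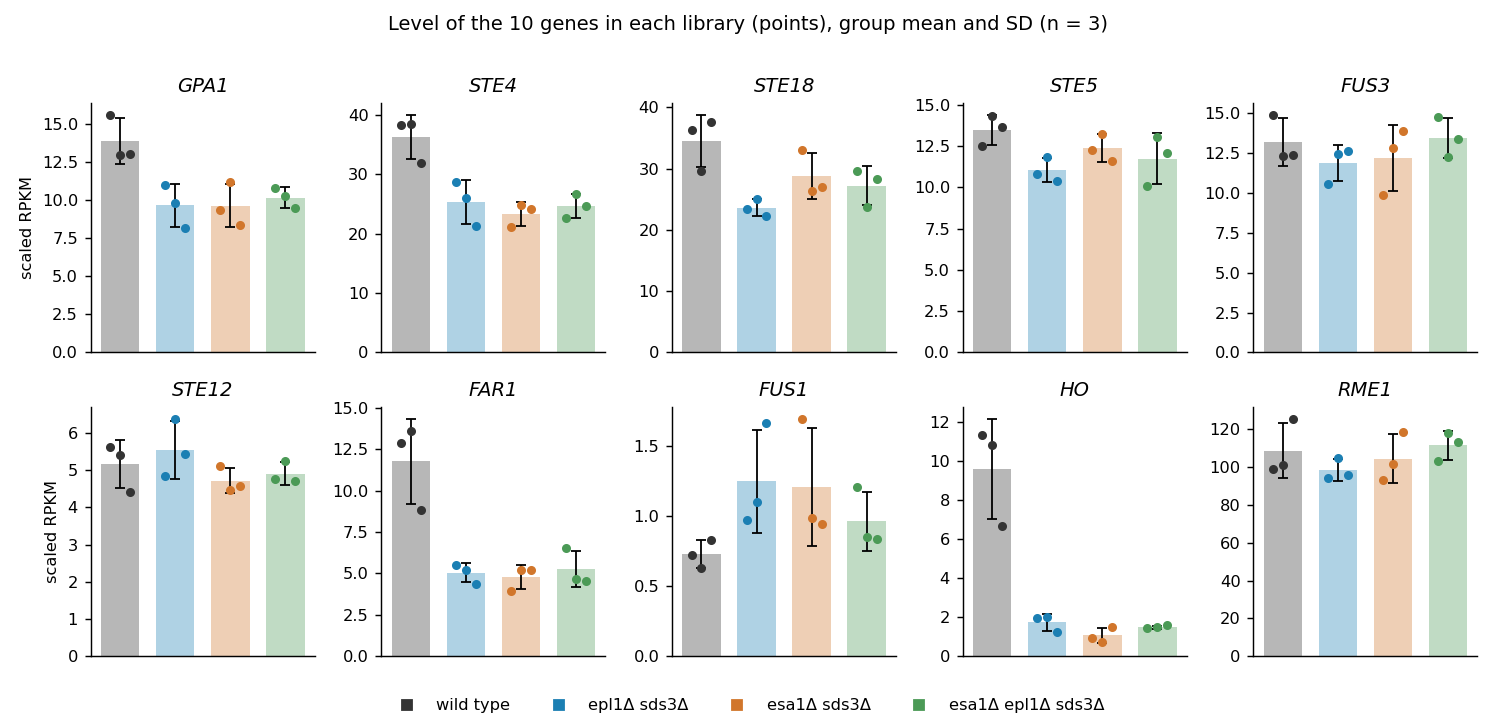
Level of each of the 10 genes as scaled RPKM (y axis, from 0) in the 4 genotype groups; points are single libraries, bars the group means and error bars the SD of 3 libraries. For HO, FAR1, STE4 and GPA1 the 9 mutant libraries lie below the 3 wild-type libraries, and for FUS1 they lie above them.

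HO, FAR1, STE4 and GPA1 fell in all 3 mutant groups, and none of the 10 genes rose in any of them. Fold changes are differences of log2(scaled RPKM + 1), a scale that shrinks the changes of genes with low levels, and a gene is said to have risen or fallen where limma's Benjamini-Hochberg adjusted p over all 5956 features was under 0.05. Of the 10 genes, 6 fell in the libraries labelled epl1Δ sds3Δ, 4 in those labelled esa1Δ sds3Δ and 5 in the triple mutant libraries, labelled esa1Δ epl1Δ sds3Δ. The share of all tested features that fell was 30%, 29.7% and 29.3% in the same order, and the share that rose was 30.1%, 30% and 30.1%. A share of 30% of 10 genes is 3 genes, so the 4 falls in the libraries labelled esa1Δ sds3Δ stand near the background. The share of all features that fell in all 3 groups was not counted, so the 4 genes that did are not set against it. The 10 genes were chosen with earlier results of these data known, which limits every comparison with the background. The median log2 fold change of the 10 genes was -0.38, -0.18 and -0.26, beside -0.01, -0.01 and 0.00 for all features. The 3 comparisons share their wild-type libraries, so a wild-type library that stands apart moves all of them.

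Every mutant library lay below every wild-type library for 4 of the 10 genes, HO, FAR1, STE4 and GPA1, beside 25.9% of all tested features. The opposite held for 1 gene, FUS1, beside 25.1% of features; FUS1 averaged under 1 RPKM in wild type and passed the filter only through the mutant libraries where it was higher, so nothing is read from this count. A fall of at least 1 on the log2 scale was called for 2 of the 10 genes, HO and FAR1, in each mutant group, where 5.84%, 5.86% and 6.11% of all features met that rule.

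**Figure D2:**
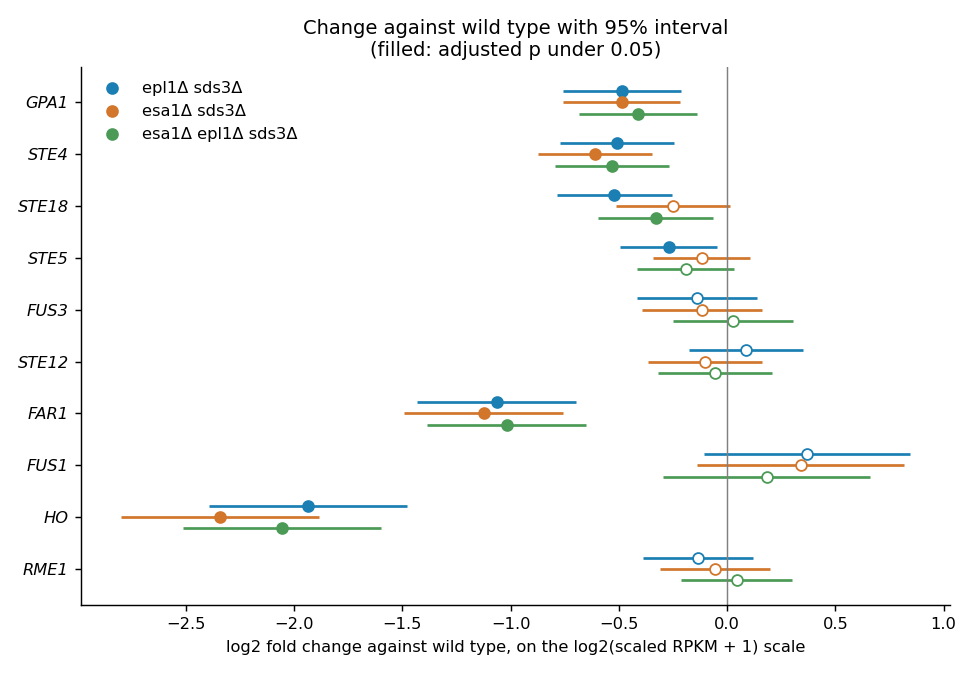
Log2 fold change of the 10 genes against wild type (x axis, on the log2(scaled RPKM + 1) scale) for the 3 mutant groups; points are limma estimates, lines their 95% intervals, and filled points passed an adjusted p of 0.05. HO and FAR1 stand farthest to the left, and the 3 intervals of each gene overlap.

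HO, the endonuclease gene of mating-type switching, changed most. Its wild-type libraries held 11.3, 10.9 and 6.68 RPKM. The libraries labelled epl1Δ sds3Δ held 1.99, 1.99 and 1.23 RPKM, those labelled esa1Δ sds3Δ held 0.968, 0.731 and 1.52 RPKM, and those labelled esa1Δ epl1Δ sds3Δ held 1.43, 1.49 and 1.58 RPKM. All mutant libraries were far below the wild-type library with the lowest value, replicate 3, and the mutant groups overlapped each other. The group means of HO came to 18.1%, 11.1% and 15.6% of that in wild type. Its log2 fold changes were -1.94 ± 0.21, -2.34 ± 0.21 and -2.05 ± 0.21 (SE), with limma's adjusted p of 7.55e-06, 1.74e-06 and 4.27e-06. At most 0.688% of the tested features had a lower fold change than HO in any of these comparisons. Between 11 and 39 reads stood behind each mutant value and between 202 and 322 behind each wild-type value. Under the 20 other settings the 3 HO falls all stayed called, with log2 values from -3.15 to -1.10. The HO mRNA is made mainly in mother cells at the end of G1, and in these bulk libraries fewer cells making it and less RNA per cell cannot be told apart; the same holds for every gene below.

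HO (YDL227C, 1761 bases) lies on the minus strand of chromosome IV at IV:46271-48031 in R64, and no annotated gene overlaps it or any of the other 9 genes. The long HO regulatory region is known for binding sites of the G1 factor SBF (Swi4-Swi6) and of a1-α2, and its upstream sequence is therefore shown. The 300 bases before the start codon (IV:48032-48331, minus strand, RefSeq R64) hold 1 match to CACGAAA, an SBF-type motif, which is in capitals:
HO promoter: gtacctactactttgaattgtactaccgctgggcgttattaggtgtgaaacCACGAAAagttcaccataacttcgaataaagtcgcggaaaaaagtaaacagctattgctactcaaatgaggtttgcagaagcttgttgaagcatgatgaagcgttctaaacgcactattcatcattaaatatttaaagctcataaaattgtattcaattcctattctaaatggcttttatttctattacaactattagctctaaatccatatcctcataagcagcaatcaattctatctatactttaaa
That motif, on either strand, is present in 4.50% of the same windows of 6001 protein-coding genes. In the 2000 bases before the start codon, HO has 8 matches to CACGAAA and 4 to the core letters of the a1-α2 operator, ATGT and ACAT with 8 bases of any kind between them. No other of the 5993 genes with such a window has as many of either, and 21.5% and 5.12% of windows have at least 1. The 8 matches to CACGAAA start between 860 and 249 bases before the start codon. The cores are shown with 2 flanking bases on each side and the fixed letters in capitals, together with the single cores upstream of GPA1 and RME1:
HO core, first base 1402 before the start codon: ttATGTtaaaagttACATcc
HO core, first base 747 before the start codon: tgATGTgaatgaatACATga
HO core, first base 422 before the start codon: tcATGTtattatttACATca
HO core, first base 382 before the start codon: tcATGTccacattaACATca
GPA1 core, first base 356 before the start codon: gcATGTtaaaaagcACATca
RME1 core, first base 404 before the start codon: agATGTcacagattACATca
They lie at IV:49416-49435, IV:48761-48780, IV:48436-48455 and IV:48396-48415 for HO, at VIII:115256-115275 for GPA1 and at VII:584279-584298 for RME1, all read on the minus strand. No core was found within 2000 bases of the other 7 genes; the letters searched are stricter than the sites a1-α2 can bind. Motif matches did not overlap each other in the windows of the 10 genes. Of the 3 genes with a core, HO and GPA1 fell in all 3 mutant groups and RME1 did not pass the test in any. A link between the core and these falls was not tested.

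**Figure D3:**
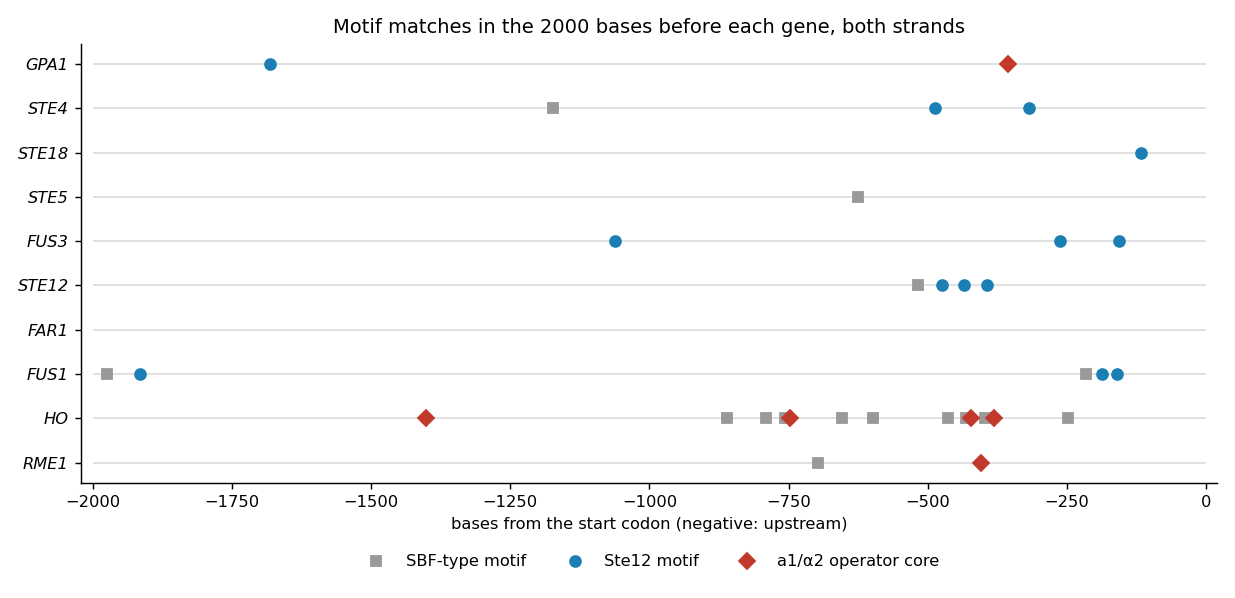
Positions of exact motif matches on either strand in the 2000 bases before the start codon of the 10 genes (x axis, bases from the start codon); red diamonds are operator cores, blue circles TGAAACA and grey squares CACGAAA or CGCGAAA. HO holds 4 of the 6 cores and the densest run of SBF-type matches, while FAR1 has no match of any kind.

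**Figure D4:**
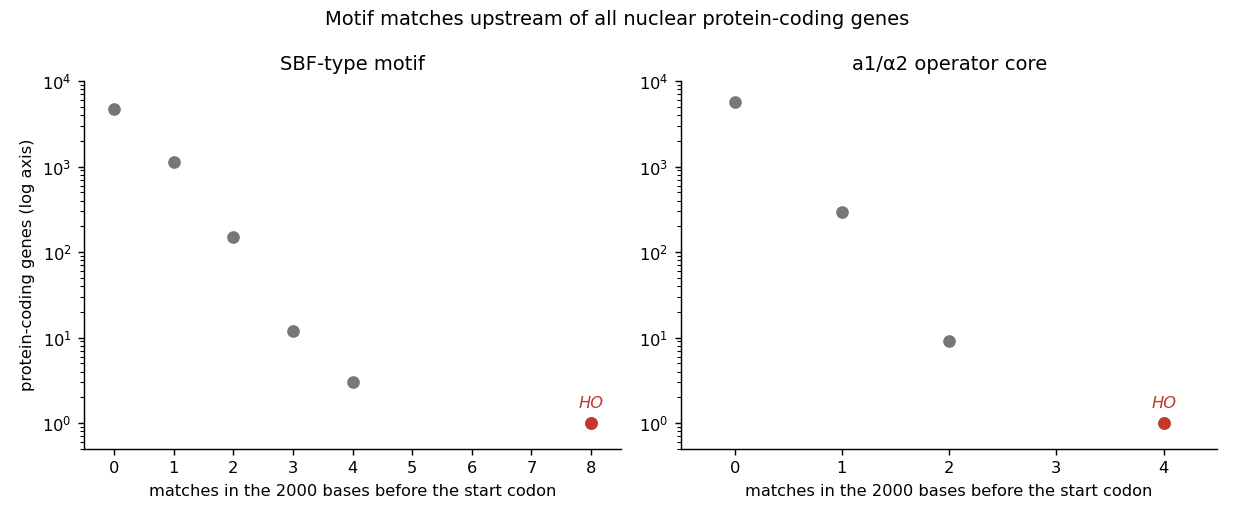
Number of protein-coding genes (y axis, log scale) by the number of matches in the 2000 bases before the start codon (x axis), for the SBF-type motif CACGAAA on the left and the operator core on the right. HO, in red, stands alone at 8 and at 4 matches, where the next genes have 4 and 2.

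FAR1 encodes the cyclin-dependent kinase inhibitor and polarity adaptor that arrests pheromone-treated cells in G1. Its wild-type libraries held 12.9, 13.6 and 8.83 RPKM. Those labelled epl1Δ sds3Δ held 5.50, 5.2 and 4.39 RPKM, those labelled esa1Δ sds3Δ 3.96, 5.21 and 5.22 RPKM, and those labelled esa1Δ epl1Δ sds3Δ 6.55, 4.69 and 4.56 RPKM. Wild-type replicate 3 was again the lowest of its group and still above all mutant libraries, while the mutant groups overlapped. FAR1 fell to 42.8%, 40.8% and 44.8% of wild type, with log2 fold changes of -1.06 ± 0.17, -1.13 ± 0.17 and -1.02 ± 0.17 (SE) and limma's adjusted p of 0.000159, 0.000105 and 0.000216. These calls held under all 20 other settings. The ratio of FAR1 to FUS3, the kinase that acts on Far1, was 0.895 ± 0.197 in wild type and 0.429 ± 0.0868, 0.396 ± 0.0166 and 0.390 ± 0.0512 in the mutant groups, so the 2 genes changed unequally. FAR1 (YJL157C) lies at X:123836-126328 on the minus strand, and neither its 300 nor its 2000 upstream bases hold any of the 4 motifs searched.

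GPA1 and STE4, both subunits of the G protein, fell in all 3 mutant groups, and STE18, the remaining subunit, in 2 of them. GPA1 (YHR005C, VIII:113499-114917, minus strand), the α subunit that holds the pathway off, measured 15.6, 13.0 and 13.1 RPKM in wild type. It measured 11.0, 9.81 and 8.20 RPKM in the libraries labelled epl1Δ sds3Δ, 9.37, 11.2 and 8.40 RPKM in those labelled esa1Δ sds3Δ, and 10.8, 10.3 and 9.48 RPKM in those labelled esa1Δ epl1Δ sds3Δ. No mutant library reached the lowest wild-type library. GPA1 fell to 69.5%, 69.4% and 73.2% of wild type (log2 -0.49, -0.49 and -0.41, SE 0.13 each, limma's adjusted p 0.00476, 0.00474 and 0.0125). The last call was lost without wild-type replicate 1, at -0.33 and an adjusted p of 0.0521, in a range of 0.00460 to 0.0521 over all settings.

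STE4 (YOR212W, XV:742910-744181, plus strand) encodes the β subunit, which carries the signal onward. It stood at 38.4, 38.5 and 31.9 RPKM in wild type, and at 28.7, 26.1 and 21.3 RPKM in the libraries labelled epl1Δ sds3Δ. The libraries labelled esa1Δ sds3Δ had 21.1, 24.8 and 24.2 RPKM and those labelled esa1Δ epl1Δ sds3Δ had 22.6, 26.8 and 24.7 RPKM. All mutant libraries lay below wild type, and STE4 fell to 69.8%, 64.4% and 68.1% of its mean. The log2 fold changes of STE4 were -0.51, -0.61 and -0.53 (SE 0.12 each), with limma's adjusted p of 0.00307, 0.000843 and 0.00216, called under every other setting.

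STE18 (YJR086W, X:586068-586400, plus strand), the γ subunit that anchors Ste4 to the membrane, varied more. It had 36.3, 29.6 and 37.6 RPKM in wild type, 23.5, 25.1 and 22.3 RPKM in the libraries labelled epl1Δ sds3Δ, 33.1, 26.3 and 27.0 RPKM in those labelled esa1Δ sds3Δ and 29.6, 23.7 and 28.4 RPKM in those labelled esa1Δ epl1Δ sds3Δ. The libraries labelled esa1Δ sds3Δ overlapped wild type, and the other groups did not, although the highest triple mutant library stood just under the lowest wild-type library, at 29.604 against 29.616 RPKM. STE18 fell in the group labelled epl1Δ sds3Δ (log2 -0.52 ± 0.12 SE, limma's adjusted p 0.00262) and in the triple mutant group (-0.33 ± 0.12, 0.0329), and did not pass in the group labelled esa1Δ sds3Δ (-0.25 ± 0.12, 0.0930). The second call was lost under 5 settings, with adjusted p up to 0.142, among them without wild-type replicate 1 (0.0882), without wild-type replicate 3 (0.103) and without replicate 2 of its own group (0.142). The third passed without wild-type replicate 2 (-0.35, 0.0271), without replicate 1 of its own group (-0.35, 0.0346) and on values as deposited (-0.50, 0.0141). STE18 is the shortest of the 10 genes at 333 bases and had 55 to 215 reads per library. The ratio of STE4 to GPA1 was 2.62 ± 0.297 in wild type and 2.62 ± 0.0345, 2.45 ± 0.374 and 2.44 ± 0.296 in the mutant groups, differences within the spread between libraries.

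The scaffold, the MAP kinase and the transcription factor gave 1 call, a fall, among 9 tests, where 29.3% to 30% of all features fell and 30% to 30.1% rose. STE5 (YDR103W, IV:658350-661103, plus strand), the scaffold that binds Ste11, Ste7 and Fus3, had 12.5, 14.3 and 13.6 RPKM in wild type and 10.8, 11.8 and 10.4 RPKM in the libraries labelled epl1Δ sds3Δ, which did not overlap. The other mutant libraries, from 10.1 to 13.2 RPKM, overlapped wild type. STE5 fell in the libraries labelled epl1Δ sds3Δ (log2 -0.27 ± 0.10 SE, limma's adjusted p 0.0381), a call lost under 5 settings with adjusted p up to 0.111: in a fit of the 2 compared groups alone (0.0636), without replicate 2 (0.108) or replicate 3 (0.0747) of wild type, or when its own group lost replicate 1 (0.0886) or replicate 3 (0.111). In the libraries labelled esa1Δ sds3Δ and esa1Δ epl1Δ sds3Δ its log2 values were -0.12 and -0.19, with adjusted p of 0.349 and 0.127; both were called lower on values as deposited, without the scaling factors (-0.35, 0.0171 and -0.38, 0.0115).

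FUS3 (YBL016W, II:192451-193512, plus strand), the mating MAP kinase, had 14.9, 12.3 and 12.3 RPKM in wild type and 9.84 to 14.7 RPKM in the 9 mutant libraries. Its levels overlapped in all groups, and its log2 values were -0.14, -0.12 and 0.03 with 95% intervals that together reached from -0.42 to 0.31. STE12 (YHR084W, VIII:274174-276240, plus strand), the transcription factor that binds pheromone response elements, had 5.64, 5.42 and 4.42 RPKM in wild type and 4.47 to 6.39 RPKM in the mutant libraries. Its log2 values were 0.09, -0.10 and -0.06, with intervals from -0.36 to 0.35 and limma's adjusted p of 0.547, 0.485 and 0.713. FUS3 as deposited, without the scaling factors, was called lower in the group labelled epl1Δ sds3Δ (-0.38, adjusted p 0.0325) and esa1Δ sds3Δ (-0.35, 0.0441), a scale on which the median of all features is itself -0.24 in both.

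FUS1 (YCL027W, III:71803-73341, plus strand), a membrane protein of cell fusion, is a standard reporter of pheromone signalling and is barely expressed without pheromone. Its libraries held 0.725, 0.631 and 0.832 RPKM in wild type, or 18, 13 and 22 reads. The values were 0.976, 1.10 and 1.67 RPKM in the libraries labelled epl1Δ sds3Δ, 1.70, 0.988 and 0.948 RPKM in those labelled esa1Δ sds3Δ, and 1.21, 0.854 and 0.837 RPKM in those labelled esa1Δ epl1Δ sds3Δ. Every mutant library lay above every wild-type library, by a narrow margin in the last group. The log2 values of FUS1 were 0.37, 0.34 and 0.18 (SE 0.22 each) and did not pass the test, with limma's adjusted p of 0.165, 0.201 and 0.494. With voom on the recovered reads, a count-based fit, the first was called higher (0.70, adjusted p 0.04997). That fit used the same filter, which FUS1 passed only through the mutant libraries, where it was higher. Nothing is therefore read from this call or from the order of the libraries. The mutant libraries held 11 to 23 FUS1 reads, so the difference rests on few reads.

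FUS1 and FUS3 share a sequence feature, and their promoters are shown for it. TGAAACA, the core of the element that Ste12 binds, occurs 2 times in the 300 bases before the start codon of each, in capitals on either strand (III:71503-71802 and II:192151-192450, both plus strand, RefSeq R64). In the FUS1 promoter, TTTCGCG, the reverse complement of the SBF-type motif CGCGAAA, is in capitals as well:
FUS1 promoter: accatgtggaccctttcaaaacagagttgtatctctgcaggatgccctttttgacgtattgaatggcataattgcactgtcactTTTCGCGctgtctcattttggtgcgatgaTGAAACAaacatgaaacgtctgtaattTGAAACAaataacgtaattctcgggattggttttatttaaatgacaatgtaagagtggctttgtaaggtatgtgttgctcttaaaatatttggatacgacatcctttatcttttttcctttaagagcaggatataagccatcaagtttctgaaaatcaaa
FUS3 promoter: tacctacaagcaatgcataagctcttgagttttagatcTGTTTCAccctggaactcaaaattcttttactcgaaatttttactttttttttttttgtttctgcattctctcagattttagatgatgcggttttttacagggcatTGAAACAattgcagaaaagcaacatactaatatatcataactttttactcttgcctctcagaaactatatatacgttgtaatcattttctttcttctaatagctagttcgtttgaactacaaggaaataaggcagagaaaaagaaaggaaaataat
Only 22 of 6001 such windows, 0.367%, hold 2 or more matches to TGAAACA, and 7.20% hold at least 1. STE18 has 1 match, and the 300 bases before the other 7 genes have none. STE12 has 3 matches to TGAAACA between 474 and 393 bases before its start codon, and STE4 has 2 at 487 and 318. The genes with 2 or more matches in 2000 bases (STE4, FUS3, STE12 and FUS1) include STE4, which fell, and 3 genes not called in any mutant group.

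RME1 (YGR044C, VII:582990-583892, minus strand), the haploid repressor of the meiotic inducer IME1, had 99.1, 101.02 and 125 RPKM in wild type and 93.0 to 119 RPKM in the mutant libraries, all overlapping. Its log2 values were -0.13, -0.05 and 0.04, with intervals from -0.39 to 0.30 and limma's adjusted p of 0.340, 0.702 and 0.770. As deposited, without the scaling factors, it was called lower in the libraries labelled epl1Δ sds3Δ (-0.39, 0.0169) and esa1Δ sds3Δ (-0.31, 0.0498). Its target IME1 had 3, 5 and 11 reads in wild type and 8 to 35 in the mutant libraries, and passed the filter only through the mutant groups, where it is higher. It had 0.369 ± 0.211 RPKM in wild type and 2.30 ± 1.59, 1.67 ± 0.506 and 1.45 ± 0.229 RPKM in the mutant groups (log2 1.16, 0.96 and 0.85), and was called higher in all 3 (limma's adjusted p 0.00706, 0.0196 and 0.0346, or 0.00679, 0.0185 and 0.0328 with no filter on low values). The IME1 calls of the groups labelled esa1Δ sds3Δ and esa1Δ epl1Δ sds3Δ were lost under 3 and 7 settings, with adjusted p up to 0.0749 and 0.110.

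The mutant groups were then compared with each other. Across the 10 genes and the 3 pairs of mutant groups, 30 tests, limma called 0 differences at an adjusted p under 0.05, and 0 under any other setting, voom included; 1 had an unadjusted p under 0.05. Of all features, 0.185%, 0.134% and 0.0504% were called in these pairs. An unadjusted p under 0.05 was found for 282, 388 and 377 of the 5956 features in the same order, so nothing is read from the 1 such test here. The widest gap was that of HO between the libraries labelled esa1Δ sds3Δ and epl1Δ sds3Δ, at -0.41 with a 95% interval from -0.86 to 0.05. The test with the low unadjusted p was STE18 in the same pair, at 0.27 (interval 0.01 to 0.53), and its libraries did not overlap there. A difference that misses the threshold does not show equal levels, and these intervals give the sizes still possible.

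Other genes of the pathway, from lists put together by role, are shown in the plot of these lists. Their counts are to be read beside the shares of all features, of which 30%, 29.7% and 29.3% fell and 30.1%, 30% and 30.1% rose in the 3 mutant groups. The α-specific genes fell in every mutant group, 4 of 4 each, with median log2 fold changes of -1.49, -1.46 and -1.48. MF(ALPHA)1, the main gene of α-factor, fell from 658 ± 66.6 RPKM to 239 ± 38.9, 236 ± 18.2 and 231 ± 11.6 RPKM, and MF(ALPHA)2, its minor gene, from 150.1 ± 26.3 to 38.4 ± 3.82, 30.4 ± 3.83 and 22.2 ± 1.93 RPKM. SAG1, the α-agglutinin of the cell surface, fell from 97.7 ± 16.3 to 33.3 ± 2.59, 35.0 ± 3.90 and 34.9 ± 1.73 RPKM. STE3, the receptor for a-factor and so the entry point of the pathway in these cells, fell less, from 92.5 ± 7.58 to 64.4 ± 2.09, 65.3 ± 4.84 and 63.2 ± 4.21 RPKM. All these falls passed limma's test, at adjusted p of at most 0.000598.

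The a-specific genes stayed low. Of 7, 5 were tested, and 1, 2 and 2 rose while 1 fell in each group. STE6, the a-factor transporter, fell from 2.61 ± 0.470 to 0.920 ± 0.137, 1.13 ± 0.121 and 1.02 ± 0.0316 RPKM. MFA1, a gene of a-factor, had 0, 3 and 0 reads in wild type and 2 to 9 reads in the mutant libraries, and was called higher in all 3 groups (limma's adjusted p 0.00136, 0.00654 and 0.00528). MFA1 and AGA2 averaged under 1 RPKM in wild type and passed the filter only through the mutant groups, where they are higher. STE6 stood near 1 RPKM in the mutant groups and passed the filter through wild type, where it is higher. MFA1, AGA2 and STE6 gave all the calls of this list, so nothing is read from these calls or from the counts of rises and falls. AGA2, a subunit of a-agglutinin, was called higher in the group labelled esa1Δ sds3Δ (adjusted p 0.0336, lost under 7 settings) and esa1Δ epl1Δ sds3Δ (0.00719), on at most 10 reads. No a-specific gene exceeded 6.57 RPKM in any library. The 6 genes listed for the mating-type locus and the silent cassettes, among them those that MATα cells express, were at 0 in 12 libraries except for 1 read of HMRA1 in a library labelled epl1Δ sds3Δ, so they do not show the mating type here. The part that the α-specific and a-specific changes have in the falls of the 10 genes was not tested.

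Of 18 other signalling genes, 6, 5 and 7 rose and 3, 5 and 3 fell, with medians of 0.11, 0.16 and 0.18, with rises near those shares of all features and falls near or below them. Rises were called for the tyrosine phosphatases PTP2 and PTP3, which act on MAP kinases: PTP2 went from 22.0 ± 4.67 to 40.5 ± 3.69, 40.0 ± 3.02 and 43.6 ± 2.50 RPKM, and PTP3 from 4.11 ± 0.209 to 7.08 ± 0.545, 6.79 ± 0.480 and 7.03 ± 0.755 RPKM. The fall of CDC42, the polarity GTPase, was from 179 ± 15.4 to 117 ± 4.83, 138 ± 13.7 and 113 ± 6.31 RPKM. The genes that follow were named to cover the steps of the pathway, after their values had been seen. STE20, the kinase that starts the cascade, rose in all 3 groups (log2 0.62, 0.55 and 0.58), as did MCM1, the partner of α1 and Ste12 at mating genes (0.63, 0.56 and 0.57), although the MCM1 rise in the libraries labelled esa1Δ sds3Δ was not called on values as deposited (0.32, adjusted p 0.0747). SST2, which turns Gpa1 off again, fell (-0.76, -0.70 and -0.70), as did TEC1, the filamentation partner of Ste12 (-0.99, -0.74 and -0.89). STE7 and KSS1, the kinase above Fus3 and its filamentation relative, did not pass the test, with log2 values from -0.27 to 0.14; on values as deposited, STE7 was called lower in the group labelled esa1Δ sds3Δ (-0.49, adjusted p 0.0110). STE11, the first kinase bound to Ste5, was called higher in all 3 groups (0.33, 0.31 and 0.52), but the first and second of these calls ended under 4 and 5 settings.

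The 3 other haploid-specific genes all changed, and not in 1 direction. NEJ1, a repair gene of end joining, fell from 6.21 ± 0.535 to 3.09 ± 0.659, 3.91 ± 0.279 and 3.28 ± 0.0864 RPKM. AXL1, a protease of a-factor maturation and bud site choice, fell from 6.17 ± 0.247 to 3.87 ± 0.389, 3.89 ± 0.282 and 4.26 ± 0.153 RPKM. RDH54, a recombination gene, rose from 10.9 ± 1.23 to 26.0 ± 3.06, 24.1 ± 0.570 and 26.0 ± 2.82 RPKM.

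Of 22 pheromone-induced and fusion genes other than FUS1, 16 were tested, and 8, 8 and 9 rose while 3, 2 and 3 fell, with medians of 0.40, 0.22 and 0.33. PCL2, a G1 cyclin of Pho85, rose from 5.30 ± 0.376 to 9.69 ± 0.217, 10.6 ± 1.01 and 9.21 ± 0.718 RPKM, and the cell wall gene SCW10 from 354 ± 67.1 to 733 ± 57.3, 704 ± 42.4 and 679.8 ± 36.1 RPKM. PRM10, a pheromone-regulated membrane protein, rose from 8.0 ± 1.67 to 15.1 ± 1.40, 14.6 ± 0.575 and 17.3 ± 2.04 RPKM. KAR3, the kinesin of nuclear fusion, rose (1.17, 1.00 and 1.27), while KAR4, a transcription factor of the same step, and PRM8 fell (-0.76, -0.71 and -0.80; -1.09, -1.09 and -1.15); these 3 were named after their values had been seen.

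Of 5 genes listed as partners or targets of Far1 and Rme1, 4 rose in each group, with medians of 0.77, 0.72 and 0.68. The 4 were CLN1, CLN2, CLN3 and IME1. IME1 passed the filter only through the mutant groups, where it is higher, so nothing is read from its part in this count. The remaining gene, CDC28, the kinase that the cyclins bind, fell in the libraries labelled epl1Δ sds3Δ (log2 -0.31, limma's adjusted p 0.0482) and had values of -0.23 and -0.18 that were not called in the other groups; it was named to account for the list, after its values had been seen. CLN2, a G1 cyclin whose kinase Far1 inhibits, rose from 20.8 ± 3.53 to 47.6 ± 2.58, 43.2 ± 2.36 and 48.2 ± 2.64 RPKM (log2 1.17, 1.03 and 1.18, limma's adjusted p 2.97e-06, 8.50e-06 and 2.44e-06). CLN3, the cyclin that starts G1 transcription, rose from 51.2 ± 6.63 to 87.5 ± 4.30, 84.5 ± 8.28 and 77.9 ± 5.96 RPKM. CLN1 rose from 10.004 ± 3.21 to 17.4 ± 3.0, 14.5 ± 1.13 and 16.2 ± 0.611 RPKM, a call lost in the libraries labelled esa1Δ sds3Δ on values as deposited (adjusted p 0.194), without wild-type replicate 3 (0.0846) and without replicate 3 of its own group (0.0643). Of the 6 Far complex genes, whose products keep cells arrested in pheromone, 4, 4 and 2 fell and 0, 1 and 0 rose, the last count of falls being near the share of all features, with medians of -0.43, -0.37 and -0.15; the 1 rise was that of FAR3 (0.44, adjusted p 0.0325), named for that count. FAR7 fell from 8.73 ± 1.28 to 4.46 ± 0.870, 3.48 ± 1.18 and 4.81 ± 1.07 RPKM. FAR10 fell from 5.87 ± 1.31 to 3.22 ± 0.755, 3.48 ± 0.304 and 3.68 ± 0.149 RPKM, and its last call was lost without wild-type replicate 1 (adjusted p 0.0592) or 3 (0.0525). FAR8 fell from 38.6 ± 7.53 to 24.7 ± 2.79 and 27.6 ± 2.97 RPKM in the libraries labelled epl1Δ sds3Δ and esa1Δ sds3Δ, and stood at 32.9 ± 2.22 RPKM in those labelled esa1Δ epl1Δ sds3Δ (adjusted p 0.206).

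Among 12 regulators of HO, 5, 4 and 5 rose and 1, 2 and 1 fell, with medians of 0.14, 0.07 and 0.28, rises near the share of all features. SWI1, a subunit of the SWI/SNF chromatin remodeller that HO requires, rose from 4.6 ± 1.20 to 8.27 ± 0.817, 6.89 ± 0.227 and 8.08 ± 0.361 RPKM. SIN3, the scaffold of the Rpd3 deacetylase that represses HO, rose from 17.5 ± 1.08 to 25.9 ± 1.53, 24.5 ± 1.11 and 25.5 ± 1.63 RPKM. On values as deposited, the SWI1 and SIN3 rises in the group labelled esa1Δ sds3Δ were not called (adjusted p 0.0623 and 0.0877). RPD3 itself fell from 29.5 ± 2.68 to 18.8 ± 1.05, 19.3 ± 1.79 and 18.4 ± 1.49 RPKM. The genes of the activators Swi5, Swi4 and Swi6 did not pass the test, with log2 values from -0.24 to 0.24. SWI6 was called lower in the group labelled epl1Δ sds3Δ on values as deposited (-0.46, adjusted p 0.0225) and without replicate 2 of that group (-0.35, 0.0433). ASH1, the daughter-cell repressor of HO, rose in the libraries labelled esa1Δ epl1Δ sds3Δ alone (0.32, adjusted p 0.0237, lost under 5 settings), and the difference from the other mutant groups was not called. SWI4, SWI5, SWI6 and ASH1 were named for their place in HO control after their values had been seen.

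**Figure D5:**
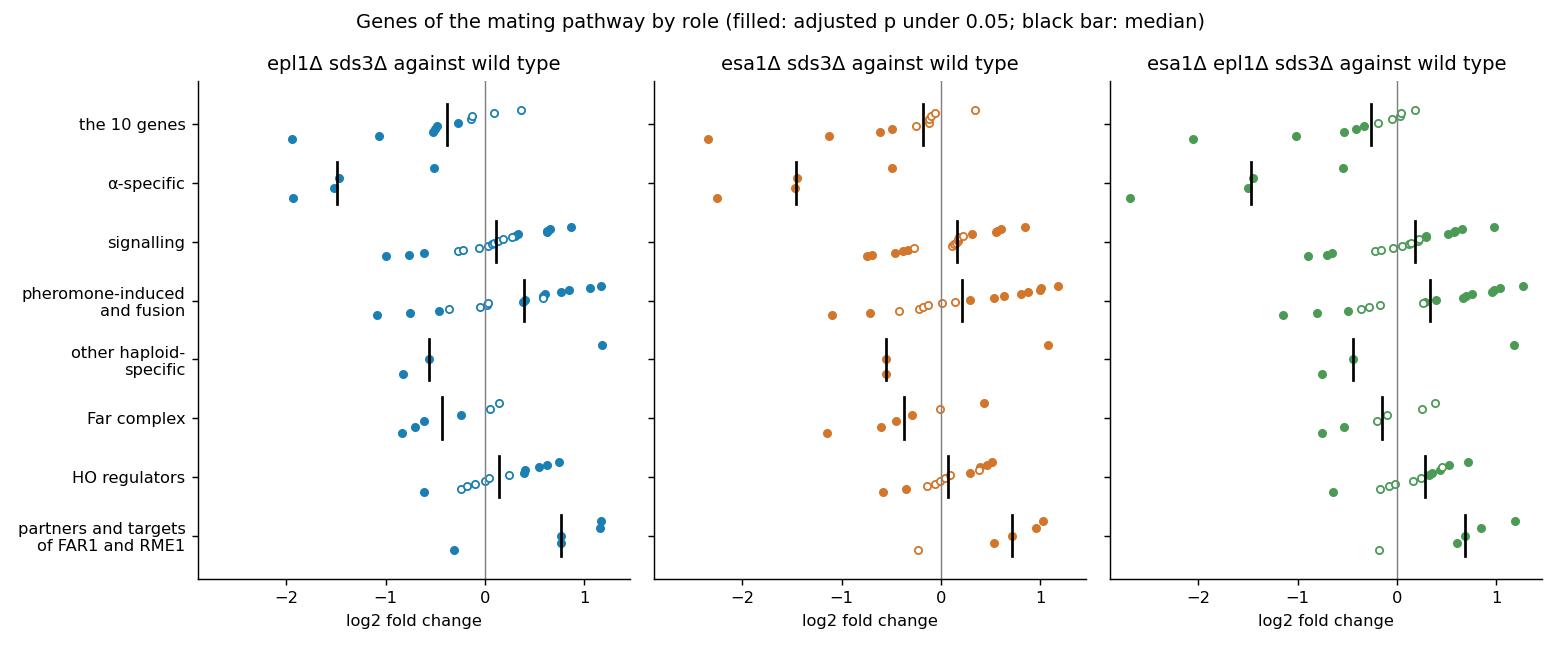
Log2 fold change against wild type (x axis) of the 10 genes and of 7 lists of related genes in the 3 mutant groups; points are genes, filled where limma's adjusted p was under 0.05, and black bars are medians. All α-specific genes lie to the left of 0, while signalling and pheromone-induced genes lie on both sides.

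The genes next to the 10 on the chromosomes were examined for their position. Of these 20 neighbours, 6, 7 and 7 fell and 4, 2 and 2 rose in the 3 mutant groups, with medians of -0.07, 0.00 and -0.16. The falls are near the shares of all features given above (30%, 29.7% and 29.3%), and the rises are below theirs. GCS1, which lies beyond the HO promoter, had log2 values of -0.39, -0.34 and -0.20, of which the first and second were called, and SSB1 on the other side of HO had 0.02, -0.06 and -0.28 with none called. Both neighbours of STE4, MGM1 (-0.35, -0.51 and -0.43) and SAS5 (-0.24, -0.33 and -0.30), had values below 0, and 5 of these 6 were called. The HO fall was several times larger on the log2 scale than that of either of its own neighbours, GCS1 and SSB1.

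Over the 12 libraries, the features with the pattern most like that of HO were NRT1, FDC1 and GCV3. Likeness was the root mean square difference of log2(scaled RPKM + 1), centred on each feature's mean, among the 3812 features averaging 10 RPKM or more, and came to 0.215, 0.290 and 0.294. Because NRT1, FDC1 and GCV3 were picked for this likeness, the falls listed here follow from the choice. NRT1 and FDC1 averaged under 10 RPKM in every mutant group and passed that minimum only through wild type. NRT1, a nicotinamide riboside transporter, went from 30.2 ± 3.31 RPKM to 6.85 ± 0.718, 6.24 ± 1.00 and 6.81 ± 0.965 RPKM. FDC1, a decarboxylase of phenolic acids, went from 33.8 ± 3.99 to 6.20 ± 1.86, 5.71 ± 0.972 and 5.29 ± 0.722 RPKM. GCV3, a subunit of the glycine cleavage system, went from 72.9 ± 18.8 to 24.1 ± 2.04, 21.0 ± 2.30 and 21.4 ± 3.58 RPKM.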

How the data were processed

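Per the labels' protocols, hot-phenol RNA was cleared of DNA and rRNA and made into stranded total RNA libraries. The tools Bowtie 0.12.2, STAR and cutadapt and the builds mm8 and sacCer3 appear in the submitters' processing notes, with no role for each; the counter, its strand setting and how it treated reads matching several places are not given in the sources used here. The deposited values were the authors' RPKM, 1 value for each of 7126 features in each of 12 libraries. Multiplied by annotated exon length, 99.71% to 99.75% of values under 5000 reads were whole reads within 0.01 read, for the 6048 features with a length. At 8089179 to 14527280 reads, a single read per kilobase equalled 0.0688 to 0.124 RPKM; counting error limits genes of few reads, such as FUS1.

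Scaling divided each library by its median-of-ratios factor (1.02 to 1.22 in wild type, 0.914 to 1.01 in the mutant libraries). The 5956 features averaging 1 RPKM or more were tested with limma 3.58.1 in R 4.3.3 on log2(scaled RPKM + 1), 12 libraries in 1 fit, moderated with a mean-variance trend and adjusted by Benjamini-Hochberg within each of 6 comparisons; the fit was tested on simulated data. SE and 95% intervals come from that fit. Replicates are biological per the labels, which do not say whether cultures shared a day. Deviations from the group mean were correlated between same-numbered libraries. In replicate order, the correlations were 0.289, -0.0798 and 0.260 for epl1Δ sds3Δ with wild type. They were 0.124, 0.125 and 0.182 for esa1Δ sds3Δ, and 0.156, 0.0504 and 0.187 for the triple mutant, each with wild type. Between mutant groups they ran from -0.0984 to 0.173, and that of replicate 3 was positive in every comparison. For differently numbered libraries, over the 6 comparisons, the correlations ran from -0.347 to 0.112. The count-based alternative was voom on recovered reads. The 21 alternatives were values as deposited, quantile normalization, pseudocounts of 0.1 and 5, no filter, a minimum of 10 RPKM, a replicate block, the 2 compared groups alone, voom, and each of the 12 libraries left out.

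The 10 genes and the lists of related genes were chosen with earlier results of these data known. From each list of related genes, the 3 members of lowest adjusted p were named, and others for their step in the pathway. Positions, exons and upstream sequences came from the RefSeq annotation of the R64 genome, the assembly of sacCer3; it is the S288C strain, so W303 bases may differ. Motifs were searched as exact letters on both strands.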

Additional observations from a re-analysis of the deposited data

How the results depend on the processing

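No called change of the 10 genes, or of the other named genes run under the alternatives, reversed direction under any setting. CDC28, FAR3, the genes next to the 10 and the genes most like HO were tested in the main fit alone. The calls for HO, FAR1 and STE4 against wild type held under every setting that tested them. With voom on recovered reads, 1 of the 10 genes, FUS1, was called higher in the libraries labelled epl1Δ sds3Δ. Nothing is read from this call, because FUS1 passed the filter only through the mutant libraries, where it was higher. On RPKM as deposited, 8, 8 and 6 genes were called lower in the mutant groups, in the order epl1Δ sds3Δ, esa1Δ sds3Δ, triple mutant; the median of all features was then -0.24, -0.24 and -0.18, and 1171, 1162 and 1251 features rose while 2560, 2562 and 2354 fell, beside 1792, 1784 and 1795 against 1785, 1770 and 1744 with scaling. At a minimum of 10 RPKM, which leaves 6 of the genes tested and drops HO and FAR1, 2 and 3 fell in the libraries labelled esa1Δ sds3Δ and esa1Δ epl1Δ sds3Δ. Leaving out 1 library moved the number that fell in the libraries labelled esa1Δ epl1Δ sds3Δ from 3 to 5, with the low value without wild-type replicate 1. With the replicate number as a block, pairing same-numbered libraries, 6, 4 and 5 genes fell in the 3 mutant groups. No call changed there for the 10 genes or for the other named genes run under the alternatives. The cause of these shifts was not tested. Few reads limit HO in the mutant libraries and FUS1 in all.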
